A study of Mus musculus with 3 samples.

Results

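Respiratory complex I was described here through every gene of the table whose symbol begins with Nduf, 43 gene IDs (42 symbols) of 12852 in all. Of these, 7 encode the catalytic core made in the nucleus, 30 gene IDs encode accessory subunits, 4 encode assembly factors (Ndufaf1 to Ndufaf4) and 2, Ndufa4 and Ndufa4l2, belong to a family once counted with the complex. RNA was sequenced from B16F10 cells, a mouse melanoma line, in 1 library of control cells (titled siCtrl, genotype wild type) and 2 libraries of Med23 knockdown cells (titled siMed23A and siMed23B, genotypes Med23 knockdown-1 and Med23 knockdown-2). Med23 is a subunit of Mediator, the complex that links transcription factors to RNA polymerase II. The title of the series names pigmentation, DNA repair and Mitf as its subject, and the comparison of control with knockdown cells is the only one the design holds. All libraries came from the same line, and the labels describe neither the knockdown reagent nor its duration and do not say whether separate cultures gave the knockdown libraries. The p-values therefore rest only on the spread between the 2 knockdown libraries, of each gene and of all genes together, which may be technical. The table runs the names of the knockdown columns together, so these libraries are called first and second by their place in it.

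Complex I is the entry point of the respiratory chain. It takes electrons from NADH, passes them along a row of iron-sulfur clusters to ubiquinone, and uses the energy to pump protons across the inner mitochondrial membrane. Its L shape has a matrix arm, which holds the NADH site and the iron-sulfur clusters, and a membrane arm, which holds the proton channels. The core of the matrix arm is encoded in the nucleus and the core of the membrane arm in mitochondrial DNA. Accessory subunits surround and stabilise the core, and assembly factors help to build the complex without staying in it. Of the 7 mitochondrially encoded subunits (mt-Nd1 to mt-Nd6 and mt-Nd4l), 0 were found by symbol in the table, so they were not analysed here.

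The values were RPKM, reads scaled to transcript length and library size, made equal in distribution across the libraries before deposit, so the read depth is unknown and a shift of all transcripts together cannot be seen. Med23 was 5.23 RPKM in control cells and 1.65 and 1.61 RPKM after knockdown (limma log2 ratio -1.24, SE 0.11, adjusted p = 0.00121). All 7 melanocyte markers checked were in the table. Their summed level was 6923 RPKM in control cells and 2977 and 2867 RPKM after knockdown. Of 12 markers of leukocytes, endothelium, epithelium and fibroblasts, 4 were in the table and 3 reached 1 RPKM, with sums of 19.6, 13.6 and 14.0 RPKM, and the highest was Cd68 at 16.9 RPKM in the control. The part of the markers in the results was not tested. In bulk RNA, fewer cells of a kind and less RNA per cell cannot be told apart.

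Most complex I genes moved little after Med23 knockdown, and those that moved went both ways. The deepest fall was in Ndufs1, the core subunit with the most iron-sulfur clusters, at 2.11-fold lower RPKM, and Ndufa4, Ndufa9, Ndufc2, Ndufv1 and Ndufa10 fell as well. A larger number of small subunits rose, none of them by as much as 1.5-fold, with Ndufa6 in front at a log2 ratio of 0.52. Of the 43 genes, 13 rose, 6 fell and 24 did not pass the test, which was limma on log2(RPKM + 1) with Benjamini-Hochberg adjustment over 9722 genes and a threshold of 0.05. That is 30.2% higher and 14.0% lower, against 26.3% higher and 24.0% lower among all genes tested. Of the 13, Ndufa4l2 passed the filter of a mean of 1 RPKM only through the knockdown libraries, where it was high. The median log2 ratio was 0.13 for complex I and 0.01 for all tested genes. The control is a single library that the test takes to vary like the knockdown libraries. With its SD taken as 3 times theirs, 0 genes were called higher and 1 lower, Ndufa4, against 1.21% and 0.792% of all genes.

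The calls of the small rises rested on how transcript length was treated. After a correction of the log2 ratios for transcript length and GC content, 4 of the 43 genes were called higher and 19 lower, against 27.6% and 25.5% of all genes with a length, and the median of the 43 became -0.16. All 6 genes that fell were also called lower with the correction. Of the 13 that rose, only Ndufa4l2 was still called higher, and the other 12 did not pass, with Ndufa2, Ndufs8 and Ndufa13 at log2 ratios of -0.08, -0.05 and -0.01 and the rest above 0. Ndufa4l2 lay at 0.777 RPKM in the control, under the filter that it passed through the knockdown libraries.

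Counted by fold alone, 1 gene (Ndufa4l2) was at least 1.5-fold higher in both knockdown libraries and 3 (Ndufs1, Ndufa4 and Ndufa9) were at least 1.5-fold lower. Among all tested genes these shares were 14.6% and 13.5%. Ndufa4l2 was 0.777 RPKM in the control and passed the filter of a mean of 1 RPKM only through the knockdown libraries. With a filter of 5 RPKM, 0 complex I genes were 1.5-fold higher. The control lay below both knockdown libraries for 26 of the 43 genes and above both for 13, and 4 overlapped. For all tested genes the shares were 46.6% below and 44.2% above. The log2 ratios of the knockdown libraries had the same sign for 39 of the 43 genes. Both ratios share the control, so this only restates the counts without overlap. The median gap between the knockdown libraries was 0.05, against 0.09 for all tested genes. The gaps were not compared at like levels, and the median control level was 55.1 RPKM for complex I and 6.98 RPKM for all tested genes.

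**Figure D1:**
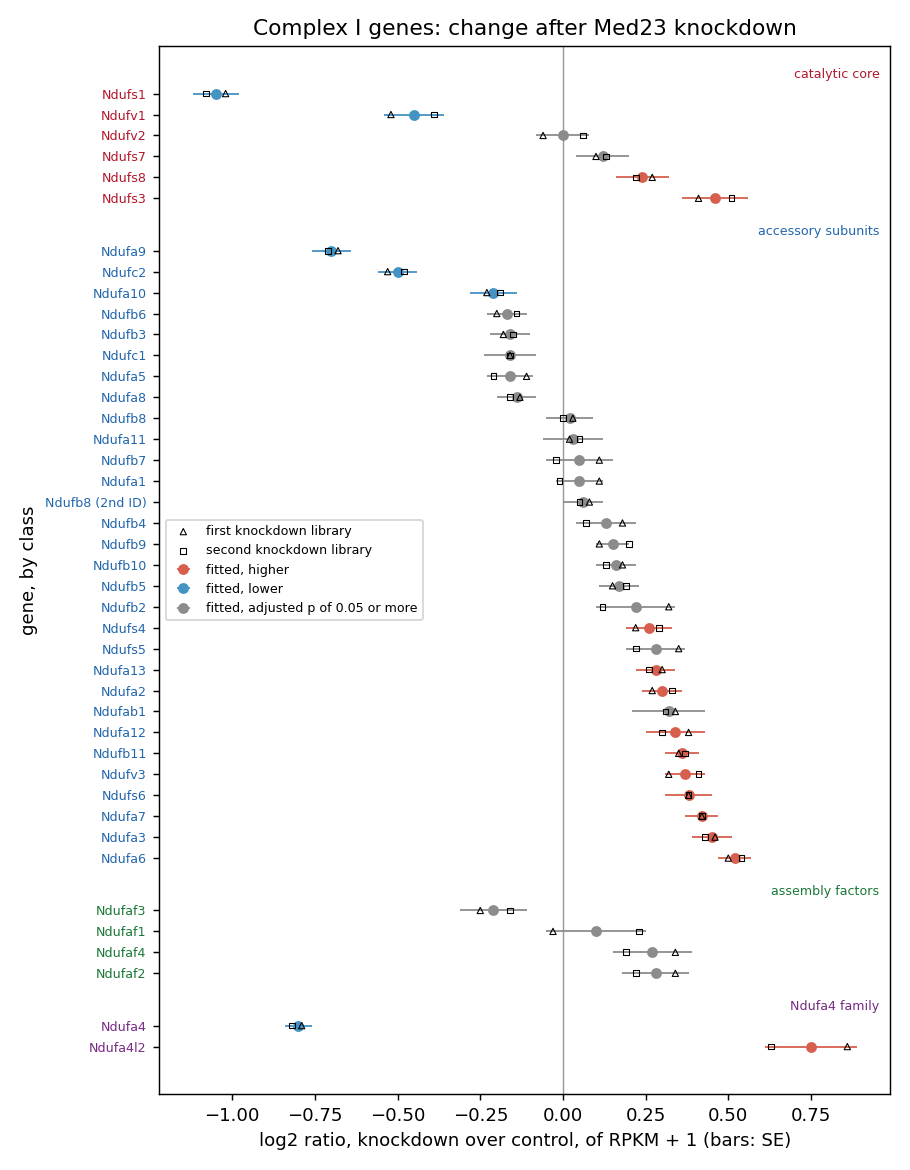
Log2 ratio of knockdown over control for 42 of the 43 complex I gene IDs on the log2(RPKM + 1) scale (horizontal axis), by class, with the limma value (circle, bar of 1 SE) and the value in each knockdown library (triangle, square). Ndufs1 is farthest to the left at -1.05 and Ndufa4l2 farthest to the right at 0.75, and among accessory subunits Ndufa9 at -0.70 is farthest to the left and Ndufa6 at 0.52 farthest to the right.

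Among the 7 core subunits, 2 fell, 2 rose and 3 did not pass the test (median log2 ratio 0.00). They form the NADH-oxidising tip of the matrix arm (Ndufv1, Ndufv2 and Ndufs1) and the stalk that leads to ubiquinone (Ndufs3, Ndufs7 and Ndufs8 among others). With the length and GC correction 0 were higher, 3 were lower, Ndufs1 and Ndufv1 among them, and 4 did not pass, with a median of -0.20. The shares over all tested genes were 26.3% higher and 24.0% lower, and 27.6% and 25.5% with the correction among those with a length.

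Ndufs1 (ENSMUSG00000025968), which carries electrons from the tip through several iron-sulfur clusters, was 58.1 RPKM in control cells and 28.1 and 27.0 RPKM after knockdown. Both knockdown libraries were far below the control, with no overlap. Its log2 ratio was -1.05 (SE 0.07, limma adjusted p = 0.000647), and -1.06 with the correction, almost unmoved. Ndufv1 (ENSMUSG00000037916), which binds NADH and the flavin, was 34.7 RPKM in control cells and 23.9 and 26.3 RPKM after knockdown. Both knockdown values again lay below the control, 1.38-fold on average (log2 ratio -0.45, SE 0.09, limma adjusted p = 0.0113; corrected -0.66). Ndufv2, their iron-sulfur partner at the tip, was 50.6 RPKM in control cells and 48.6 and 52.9 RPKM after knockdown, so the groups overlapped (log2 ratio 0.00, SE 0.08).

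The stalk subunits reported here are Ndufs3, Ndufs8 and Ndufs7, and a difference between stalk and tip was not tested. Ndufs3, which helps to form the floor of the quinone site, was the lowest core gene at 10.4 RPKM in control cells and rose to 14.2 and 15.2 RPKM (log2 ratio 0.46, SE 0.10, limma adjusted p = 0.0131). Ndufs8, a ferredoxin-like subunit, rose from 28.9 to 35.1 and 33.7 RPKM (log2 ratio 0.24, limma adjusted p = 0.0446). For both genes the control lay below both knockdown libraries, yet neither passed with the length and GC correction, at 0.17 for Ndufs3 and -0.05 for Ndufs8. Ndufs7, which carries the last iron-sulfur cluster before ubiquinone, was 20.3 RPKM in control cells and 21.9 and 22.3 RPKM after knockdown. Ndufs7 did not pass (limma adjusted p = 0.272).

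**Figure D2:**
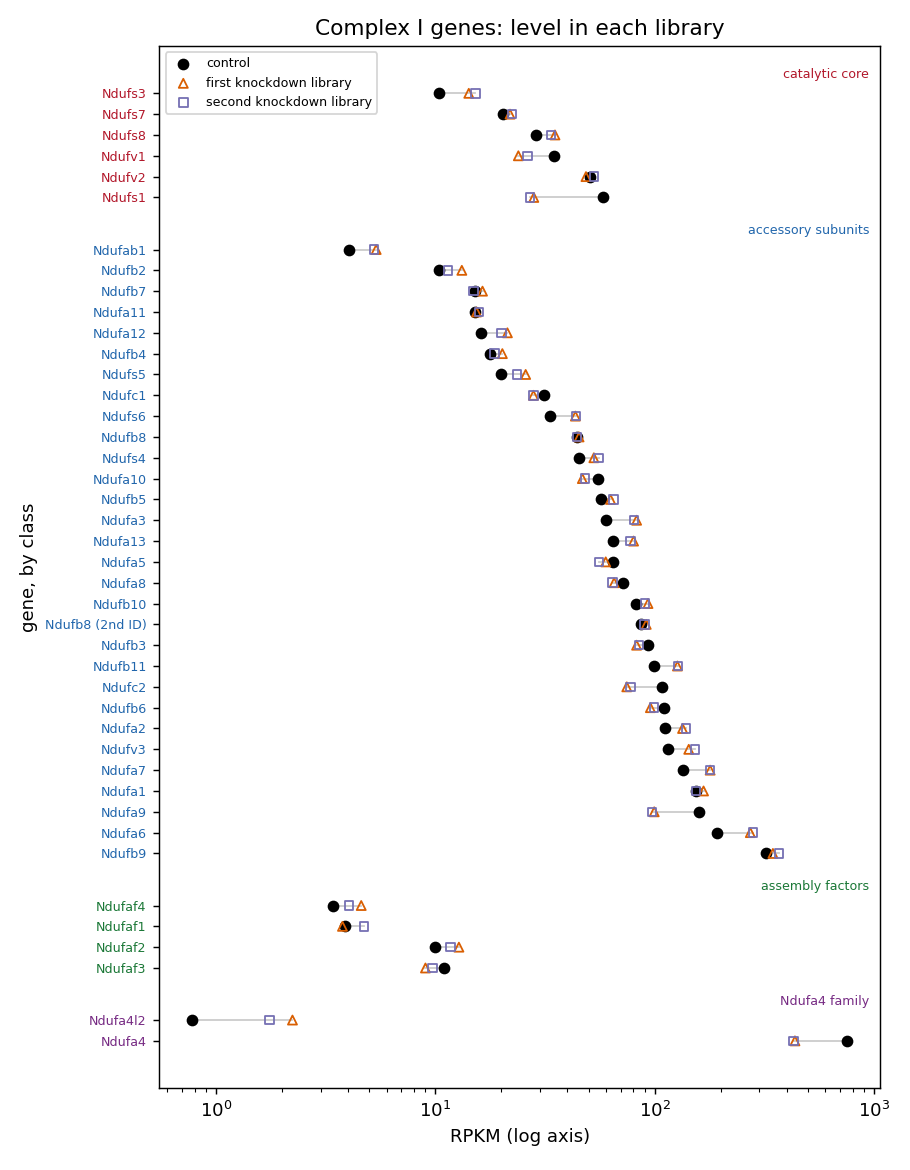
RPKM of 42 of the 43 complex I gene IDs (horizontal log axis) in the control library (filled circle) and in the first (triangle) and second (square) knockdown library, by class and ordered by the control level. The levels span from 0.777 RPKM for Ndufa4l2 to 756 RPKM for Ndufa4 in the control, and the gap between libraries is small beside the gap between genes except for a few such as Ndufs1.

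Of the 30 gene IDs for accessory subunits, 10 rose, 3 fell and 17 did not pass the test (median log2 ratio 0.16, and -0.14 with the length and GC correction, when 2 were called higher and 14 lower). Their summed level was 2392 RPKM in control cells and 2592 and 2612 RPKM after knockdown. Among the accessory subunits of the matrix arm 7 of 9 rose, 1 fell and 1, Ndufa5, did not pass (median log2 ratio 0.34). In the membrane arm, whose nuclear-encoded subunits are all accessory, 3 of 20 rose, 2 fell and 15 did not pass (median 0.06). The 9 and the 20 had median transcript lengths of 875 and 812 bases. Among other tested genes under 1000 bases, 57.6% rose and 9.48% fell. The difference between the arms was not tested. With the correction, 0 of the 9 were called higher and 2 lower (median 0.04), and 1 of the 20 was called higher and 12 lower (median -0.24). Among all tested genes 26.3% were called higher and 24.0% lower, and 27.6% and 25.5% with the correction among those with a length.

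Ndufa9 (ENSMUSG00000000399), which sits where the matrix arm meets the membrane, had the largest fall of the accessory subunits. It was 160 RPKM in control cells and 99.5 and 97.2 RPKM after knockdown, 1.63-fold lower with no overlap (log2 ratio -0.70, SE 0.06, limma adjusted p = 0.000852; corrected -0.90). The other accessory subunits of the matrix arm that passed the test all went up. Ndufa6, a small subunit of the arm that binds the acyl carrier protein, was 193 RPKM in control cells and 273 and 281 RPKM after knockdown (log2 ratio 0.52, SE 0.05, limma adjusted p = 0.00121). Ndufa7 was 134 RPKM in control cells and 179 RPKM in each knockdown library (log2 ratio 0.42, limma adjusted p = 0.00239). Ndufa6 and Ndufa7 were higher in both knockdown libraries by nearly the same amount, and neither passed with the correction, at 0.15 and 0.04.

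Ndufs6, a zinc-binding subunit needed late in assembly, was 33.2 RPKM in control cells and 43.5 and 43.7 RPKM after knockdown (log2 ratio 0.38, limma adjusted p = 0.00882). Ndufv3, an accessory subunit of the tip, was 115 RPKM in control cells and 143 and 153 RPKM after knockdown (log2 ratio 0.37, limma adjusted p = 0.00679). Ndufa2, which has a thioredoxin-like fold, was 111 RPKM in control cells and 134 and 139 RPKM after knockdown (log2 ratio 0.30, limma adjusted p = 0.00972). In each of these genes the control was the lowest library. Ndufa12 was 16.1 RPKM in control cells and 21.3 and 20 RPKM after knockdown (log2 ratio 0.34, limma adjusted p = 0.0258). Ndufs4, whose loss in mice is a model of Leigh syndrome, was 45.1 RPKM in control cells and 52.8 and 55.5 RPKM after knockdown (log2 ratio 0.26, limma adjusted p = 0.0302). The corrected log2 ratios of these 5 genes lay between -0.08 for Ndufa2 and 0.16 for Ndufv3, and none passed. Ndufa5, a Q-module subunit, was 64.8 RPKM in control cells and 59.8 and 55.7 RPKM after knockdown (limma adjusted p = 0.117), and it was called lower with the correction (-0.48).

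In the membrane arm the largest log2 ratio was that of Ndufc2 (ENSMUSG00000030647), a subunit of the proximal part of the arm. It was 108 RPKM in control cells and 74.6 and 77.5 RPKM after knockdown, 1.42-fold lower with no overlap (log2 ratio -0.50, SE 0.06, limma adjusted p = 0.00267; corrected -0.87). Ndufa10, which is related to nucleoside kinases, was 55.1 RPKM in control cells and 46.8 and 48.2 RPKM after knockdown. This fall was at the edge of the test (log2 ratio -0.21, SE 0.07, limma adjusted p = 0.0496), with adjusted p between 0.00413 and 0.541 over the other settings.

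The membrane arm genes that rose were Ndufa3, Ndufb11 and Ndufa13. Ndufa3 was 59.7 RPKM in control cells and 82.7 and 80.6 RPKM after knockdown (log2 ratio 0.45, limma adjusted p = 0.00385). Ndufb11, encoded on the X chromosome, was 99.3 RPKM in control cells and 127 and 128 RPKM after knockdown (log2 ratio 0.36, limma adjusted p = 0.00471). Ndufa13, also known as GRIM-19 and studied as a regulator of cell death, was 64.7 RPKM in control cells and 80.1 and 77.6 RPKM after knockdown (log2 ratio 0.28, limma adjusted p = 0.0155). The control was the lowest library for each, and with the correction none passed, at 0.05 for Ndufa3 and Ndufb11 and -0.01 for Ndufa13.

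The Ndufb subunits belong to the membrane arm. Of their 11 gene IDs, 1 (Ndufb11) rose, 0 fell and 10 did not pass, with log2 ratios between -0.17 and 0.36. Among all tested genes 26.3% were called higher and 24.0% lower. Ndufb9, the most abundant subunit gene of the complex, was 321 RPKM in control cells and 346 and 368 RPKM after knockdown (log2 ratio 0.15, limma adjusted p = 0.0595). Ndufb3, Ndufb6 and Ndufc1 were lower in both knockdown libraries without passing, with log2 ratios of -0.16, -0.17 and -0.16. Ndufc1 had the same 28.0 RPKM in both knockdown libraries, since the distributions had been made equal, so its SD of 0 is no measure of its spread. Ndufa1 and Ndufb7 overlapped between the groups, and Ndufa11 stood at 15.2, 15.4 and 15.8 RPKM. With the correction 6 of the 11 were called lower and 1, Ndufb2, higher (0.41), beside 25.5% lower and 27.6% higher among all genes with a length. The 6 include 1 gene ID of Ndufb8 (ENSMUSG00000091471, -0.35), while its other gene ID did not pass (-0.05). Ndufab1, the mitochondrial acyl carrier protein that sits in both arms, was the lowest subunit gene at 4.04 RPKM in control cells and 5.37 and 5.24 RPKM after knockdown, at the edge of the test (log2 ratio 0.32, limma adjusted p = 0.052, and 0.0105 with the correction).

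The 4 assembly factors named Ndufaf did not pass the test in either direction (median log2 ratio 0.18, and -0.10 with the correction). They were also the least abundant class, between 3.41 and 10.9 RPKM in the control. Ndufaf1, which helps to build the membrane arm, was 3.87 RPKM in control cells and 3.77 and 4.72 RPKM after knockdown, so the groups overlapped. Ndufaf2, a paralog of Ndufa12 that holds its place during assembly, was 9.93 RPKM in control cells and 12.8 and 11.7 RPKM after knockdown (log2 ratio 0.28, SE 0.10, limma adjusted p = 0.0676). Ndufaf3 and Ndufaf4 act together early in assembly. They stood on opposite sides of the control: Ndufaf3 was 10.9 RPKM and then 9.01 and 9.70 RPKM, and Ndufaf4 was 3.41 RPKM and then 4.59 and 4.03 RPKM (log2 ratios -0.21 and 0.27, limma adjusted p = 0.142 and 0.12). With the correction Ndufaf3 was called lower (-0.43) and Ndufaf4 higher (0.43).

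Under former names the table also held Ndufaf5 to Ndufaf8, matched by gene ID to GENCODE M21. Ndufaf5 (2310003L22Rik), which modifies Ndufs7, rose from 3.53 to 5.21 and 5.60 RPKM (log2 ratio 0.50, SE 0.11, limma adjusted p = 0.0157). Ndufaf7 (2410091C18Rik) fell from 7.32 to 5.78 and 5.39 RPKM (log2 ratio -0.34, SE 0.11, limma adjusted p = 0.0467). Ndufaf6 and Ndufaf8 did not pass, with log2 ratios of 0.36 and -0.05. With the correction Ndufaf5 did not pass (0.23) and Ndufaf7 was still called lower (-0.34). Of 13 other assembly factors listed, 9 were tested. Of these, 0 rose, 2 fell and 7 did not pass (median -0.09), beside 26.3% higher and 24.0% lower among all tested genes. The assembly factors of this list that fell were Tmem70, from 17.1 to 13.8 and 13.5 RPKM, and Acad9, from 2.84 to 2.03 and 1.98 RPKM (limma adjusted p = 0.0345 and 0.0455). Acad9 works with Ndufaf1 and Ecsit in assembling the membrane arm, and it did not pass with the correction (-0.24).

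The members of the Ndufa4 family went opposite ways. Ndufa4 (ENSMUSG00000029632), now assigned to complex IV, was the most abundant Nduf gene at 756 RPKM in control cells and fell to 436 and 429 RPKM. The knockdown libraries were close to each other and 1.75-fold below the control (log2 ratio -0.80, SE 0.04, limma adjusted p = 0.000239; corrected -1.24). Ndufa4l2 (ENSMUSG00000040280), its paralog, is known as a target of Hif1a that is raised in hypoxia. It was the least abundant, at 0.777 RPKM in control cells, and rose to 2.23 and 1.75 RPKM (log2 ratio 0.75, SE 0.14, limma adjusted p = 0.00973; corrected 0.42). Its control value lay under 1 RPKM, so it passed the filter of a mean of 1 RPKM only through the knockdown libraries, where it was high. All 43 genes passed this filter.

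Transcript length moved with the log2 ratios over the whole table. Across 9614 tested genes with a length from GENCODE M21, Spearman's correlation of log2 ratio with length was -0.38, and with GC content 0.20. Across the 43 complex I genes it was -0.18 and 0.21, as a description of points that share the same libraries. Complex I transcripts are short, with a median length of 971 bases against 3085 bases for all tested genes. Among transcripts under 1000 bases, 7 of 23 complex I genes rose and 2 fell (median 0.13), while 57.6% of 538 other genes rose and 9.48% fell (median 0.38). From 1000 to 2000 bases, 6 of 14 rose and 2 fell (median 0.13), while 42.3% of 1938 other genes rose and 12.5% fell (median 0.22). At 2000 bases and over, 0 of 6 rose and 2 fell (median 0.12), while 19.5% of 7095 other genes rose and 28.4% fell (median -0.07). The difference between complex I genes and other genes of like length was not tested. A correction for length alone gave 3 higher and 17 lower, and for GC content alone 17 higher and 8 lower. The higher calls of Ndufb2, Ndufab1 and Ndufaf4 under the correction rest on annotated transcripts of 4371, 3479 and 3632 bases, and the lengths behind the deposited values are not given in the sources used here.

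**Figure D3:**
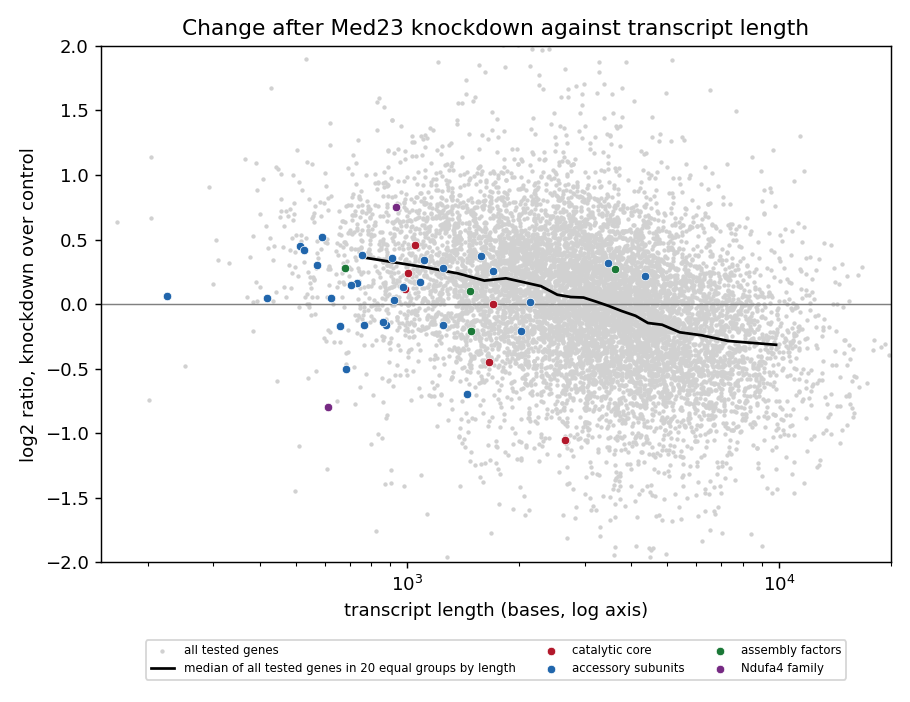
Log2 ratio (vertical axis) against transcript length (horizontal log axis, in bases) for the tested genes in grey and 42 of the 43 complex I gene IDs in colour by class, with the median of all tested genes in 20 groups of equal size as a line. Of 9614 genes with a length, 86 lie outside the axes, and the 23 complex I genes under 1000 bases have a median of 0.13, against 0.38 for other genes of that length.

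**Figure D4:**
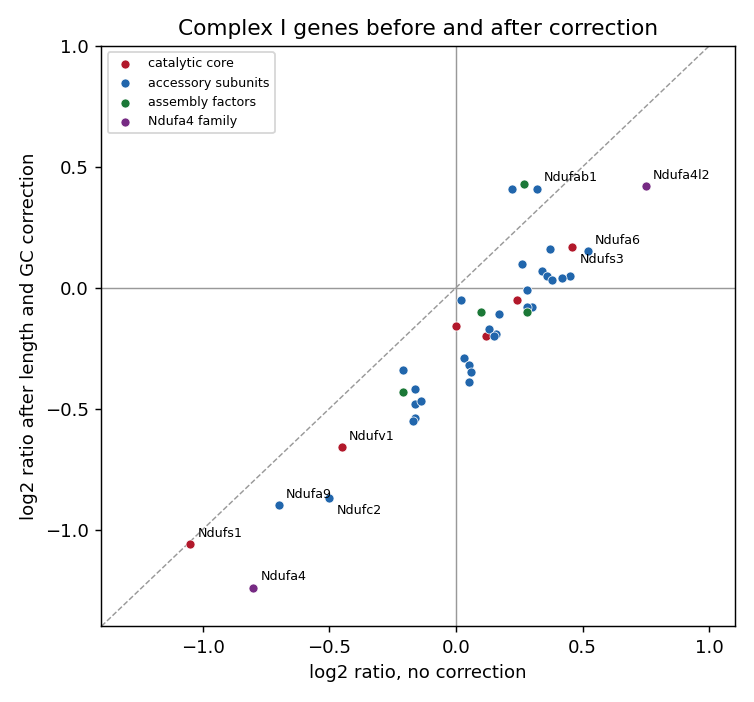
Log2 ratio of 42 of the 43 complex I gene IDs without correction (horizontal axis) and after correction for transcript length and GC content (vertical axis), with the line of equal values dashed. Most genes lie below the line, Ndufs1 lies on it at -1.05 and -1.06, and Ndufab1 and 2 other genes lie above it.

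The subunits, which stand in fixed numbers in the complex, differed widely in RNA level. Over the 37 gene IDs for core and accessory subunits the control ranged from 4.04 RPKM for Ndufab1 to 321 RPKM for Ndufb9, a 79.3-fold span. In the control 7 were under 20 RPKM, 21 from 20 to 100 RPKM and 9 over 100 RPKM. RPKM is per length and depends on the gene model, and copies of a gene can take some of its reads. A search of the GENCODE M21 transcripts for matches of at least 95% identity over at least 200 bases found a same-strand match in another gene for 9 of the 43 genes, processed pseudogenes in all but Ndufb9. These included Ndufs3, Ndufa12, Ndufs6, Ndufb11 and Ndufab1, so their levels are uncertain. A further 3, Ndufa13, Ndufb5 and Ndufb6, overlapped a gene on the opposite strand (Tssk6, Mrpl47 and Smim27), and without strand such reads cannot be told apart. Ndufb8 had 2 gene IDs in the table, ENSMUSG00000091471, named Gm20538 in GENCODE M21, and ENSMUSG00000025204 (86.8 and 44.2 RPKM in the control). They were counted with these genes for their common symbol, and no match between them met the limits above. Both stood near 0, with log2 ratios of 0.06 and 0.02. Without these 14 gene IDs, 8 of 29 rose and 6 fell (27.6% and 20.7%), beside 26.3% higher and 24.0% lower among all tested genes.

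Promoter sequence was read for the genes that moved most in each direction, since genes of the complex are commonly described as sharing binding sites for NRF1, ETS factors such as Gabpa, and YY1. RefSeq windows (build GRCm38.p6, 250 bases before to 50 after the start) were found for 37 of the 42 symbols, and Ndufs1, Ndufa2, Ndufb9 and Ndufa4l2 were among those with none. The parts before the start that lie in no annotated exon are shown for Ndufa4 and Ndufa9, the largest falls with a window, and Ndufa6, the largest rise with a window among genes of at least 1 RPKM in the control. All are on the minus strand and read 5′ to 3′. Capitals mark a match to the NRF1 letters GCATGCGC on either strand, the only match to the letters searched in these stretches. They cover chr6:11907498-11907700 (Ndufa4), chr6:126849145-126849394 (Ndufa9) and chr15:82354323-82354541 (Ndufa6).
Ndufa4: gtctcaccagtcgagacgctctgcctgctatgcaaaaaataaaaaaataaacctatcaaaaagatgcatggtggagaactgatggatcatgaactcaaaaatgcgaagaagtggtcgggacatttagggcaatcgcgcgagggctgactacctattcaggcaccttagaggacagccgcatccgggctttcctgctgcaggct
Ndufa9: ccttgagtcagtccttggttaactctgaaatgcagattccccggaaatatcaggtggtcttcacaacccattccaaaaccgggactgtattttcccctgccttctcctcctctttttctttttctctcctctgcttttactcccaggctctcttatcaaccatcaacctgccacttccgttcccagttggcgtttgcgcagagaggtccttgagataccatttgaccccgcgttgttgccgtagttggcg
Ndufa6: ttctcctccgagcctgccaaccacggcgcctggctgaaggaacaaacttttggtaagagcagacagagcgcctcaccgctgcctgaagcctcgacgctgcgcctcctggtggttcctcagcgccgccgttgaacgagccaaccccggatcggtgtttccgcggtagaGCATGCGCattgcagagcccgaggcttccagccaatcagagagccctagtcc

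The NRF1 match of Ndufa6 begins 83 bases before the start, and the window of Ndufa4 held none of the motifs. In Ndufa9 the YY1 letters AAGATGGC began at base 30 after the start. Searched on both strands of 39 windows of complex I genes, the YY1 letters were in 17.9%, against 2.75% of all 32851 windows and 4.82% of 8962 windows of tested genes. NRF1 was in 10.3% (2.71% and 5.78%), the ETS letters CCGGAAG in 12.8% (8.86% and 19.0%), the GC box GGGCGG in 51.3% (35.7% and 65.8%), the E-box CACGTG, which Mitf can bind, in 7.69% (7.15% and 10.4%) and the CRE TGACGTCA in 7.69% (1.79% and 3.24%). In these windows 1 pair of different motifs overlapped. The YY1 letters were in 3 of 11 genes that rose, 1 of 5 that fell and 3 of 21 that did not pass, so they occurred on every side of the test. The E-box was in 1 gene that rose, Ndufa7, and 1 that fell, Ndufv1.

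Regulators of mitochondrial genes were mostly not past the test. Of 14 listed, 12 were tested, 0 rose, 3 fell and 9 did not pass, beside 26.3% higher and 24.0% lower among all tested genes, so the share that fell was near that of all genes. Ppargc1a, a coactivator that drives mitochondrial biogenesis and is a reported target of Mitf, fell from 6.61 to 4.17 and 3.29 RPKM (log2 ratio -0.69, SE 0.15, limma adjusted p = 0.0136). Nfe2l2, the antioxidant regulator, fell from 26.2 to 18.1 and 17.2 RPKM, and Yy1 fell from 42.0 to 33.0 and 34.7 RPKM (log2 ratios -0.55 and -0.30, limma adjusted p = 0.00532 and 0.0227). With the length and GC correction the log2 ratio of Ppargc1a shrank to -0.32 and that of Nfe2l2 was -0.57, both still called lower. Yy1 did not pass with it (-0.11). In all, 2 of the 12 were then called higher and 3 lower, beside 27.6% and 25.5% of all genes with a length. Nrf1 and Gabpa, named after their values were seen because their motifs were searched, did not pass (limma adjusted p = 0.978 and 0.85).

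The other complexes of the chain, read in the same libraries, gave a lower median. Of 38 genes tested for complexes II to V, 8 rose, 17 fell and 13 did not pass (21.1% higher and 44.7% lower, median log2 ratio -0.15), beside 26.3% higher and 24.0% lower among all tested genes, and for complex II all 4 genes fell. With the correction the medians were -0.40 for complexes II to V and -0.16 for the 43 complex I genes. The largest falls among them were in Uqcrc1 of complex III, Atp5g3 and Atp5a1 of complex V and Cox5a of complex IV, with log2 ratios of -0.94, -0.77, -0.76 and -0.75. Cox7c of complex IV rose from 12.4 to 26.0 and 25.8 RPKM, more than any complex I subunit. All comparisons rest on the same control library, and the difference between complex I and the other complexes was not tested.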

How the data were processed

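RNA from 3 libraries of B16F10 cells was sequenced. The authors deposited RPKM per gene, and per the submitters' processing notes CASAVA 1.4, TopHat, Cufflinks and mm9 were used; strand and annotation are not given in the sources used here. After sorting, the columns were equal within a relative 1e-09 at 95.3% of positions and differed by at most 0.682%, so depth is unknown. Here log2(RPKM + 1) of the 9722 genes whose mean reached 1 RPKM was fitted with limma 3.58.1 (R 4.3.3; trended variance, 1 residual degree of freedom, prior 4.37) and adjusted by Benjamini-Hochberg. The code was tested on simulated data. Lengths and GC content came from GENCODE M21 (GRCm38) for 98.1% of genes, so no gene coordinates are given beyond RefSeq promoters. The members and lists were chosen with earlier results of these data known. Genes to be named were core, assembly and Ndufa4 family genes, accessory subunits past 0.05 or 1.5-fold, and at most 4 per direction of other lists; Ndufa1, Ndufa5, Ndufa11, Ndufab1, Ndufb2, Ndufb3, Ndufb6, Ndufb7, Ndufb8, Ndufb9, Ndufc1, Ndufaf5 to Ndufaf8, Nrf1 and Gabpa were added after their values were seen. Other pseudocounts, filters, fold limits, spreads, corrections and left-out libraries were tried. For 1 core subunit no values of its own are reported here; it stays in the counts and medians.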

Additional observations from a re-analysis of the deposited data

How the results depend on the processing

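Of the 43 genes, 41 kept their call with a pseudocount of 0.1, 41 with no filter, 39 of 39 tested with a filter of 5 RPKM, 43 after a median shift and 37 without the variance trend. The median shift was 0.000 on the log2 scale for both knockdown libraries, because the distributions had been made equal. That setting therefore could not change a call and is no check. With the control SD at 3 times that of the knockdown libraries the counts were 0 higher and 1 lower. Correction for length and GC content gave 4 higher and 19 lower, and for length alone 3 and 17. Without the 14 gene IDs that share sequence or a symbol, 8 of 29 were higher and 6 lower, beside 26.3% and 24.0% of all tested genes. At a fold limit of 2, 1 gene was lower in both knockdown libraries, and with a filter of 5 RPKM 0 genes were 1.5-fold higher. The core median was -0.20 with length and GC and -0.18 with length. The accessory median was -0.14 with either and 0.10 with GC alone, and ranged from 0.13 to 0.17 with a knockdown library left out. The assembly median was -0.10, -0.09 and 0.26 in the same order, and 0.04 with a filter of 5 RPKM. The sign turned with length and GC, and with length alone, for Ndufa1 (-0.39 and -0.34), Ndufa11 (-0.29 and -0.28), Ndufa2 (-0.08 and -0.08), Ndufb10 (-0.19 and -0.19), Ndufb4 (-0.17 and -0.17), Ndufb5 (-0.11 and -0.11), Ndufb7 (-0.32 and -0.32), Ndufb8 (-0.05 and -0.11) and its other gene ID (-0.35 and -0.32), Ndufb9 (-0.20 and -0.20), Ndufs5 (-0.08 and -0.07), Ndufaf1 (-0.10 and -0.11), Ndufaf2 (-0.10 and -0.07), Ndufs7 (-0.20 and -0.18), Ndufs8 (-0.05 and -0.05) and Ndufv2 (-0.16 and -0.17), and with length and GC for Ndufa13 (-0.01). With GC alone it turned for Ndufa11 (-0.08), Ndufb7 (-0.09) and Ndufs7 (-0.02). The cause was not tested. The corrections for length alone and GC alone and the removal of the 14 gene IDs that share sequence or a symbol were chosen after seeing the data. With a knockdown library left out no residual degrees of freedom remain, so calls have no such check. No paired analysis was possible because the control group held 1 library.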
